A study of Caenorhabditis elegans with 2 samples.

Results

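HLH-4 binding was examined at the neuropeptide genes of Caenorhabditis elegans, taken as the protein-coding genes of the Ensembl WBcel235 annotation whose symbol is flp-, nlp- or ins- followed by a number. There were 140 such genes among 19985 protein-coding genes: 71 nlp, 38 ins and 31 flp. The symbols alone chose them, with no measured value in the rule, although the rule was set with earlier results of these data known. Binding came from ChIP-seq of whole hermaphrodite L1 larvae of strain OP523, which has the genotype unc-119(tm4063) III; wgIs523, where wgIs523 is an integrated transgene for HLH-4 with GFP and FLAG at its C-terminus. Larvae were collected 6 hours after synchronization by starvation, and chromatin was precipitated with an antibody to GFP. The 2 biological replicates form 1 group and carry the same alleles, so no comparison between conditions exists. The labels do not name the promoter of the transgene. Whole animals were used, so a site occupied in few cells and a weak site in many cannot be told apart. The authors listed 30000 regions with a signal value per replicate and as many for both replicates pooled. Their optimal set, after an irreproducible discovery rate (IDR) step, was the 1.82% of pooled regions with the highest signal values. The pooled list was labelled as peaks and background for input to that step. A region below the optimal set is therefore not in itself evidence of HLH-4 binding. Ranks count from 1 at the strongest region of a list, and the top set of a replicate means its strongest regions, as many as there are optimal peaks. Read depth is unknown, so no interval is given.

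FLP peptides are short amidated peptides related to FMRFamide, INS peptides are insulin-like ligands of the receptor DAF-2, and NLP is a mixed class of other neuropeptide-like precursors. The precursors are cut by proprotein convertases, trimmed, in many cases amidated, and released from dense-core vesicles, mostly to act on G protein-coupled receptors. HLH-4, related to Achaete-Scute proteins, is a basic helix-loop-helix factor that acts in the ADL chemosensory neurons. Such factors bind E-boxes. Here an E-box means the hexamer CAGCTG, which reads the same on both strands, or the hexamer CACCTG, which reads CAGGTG on the opposite strand, and both strands were searched. Sites counted as being at a summit lay wholly within 50 bp on either side of it.

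Each gene is described by its strongest assigned region. A region was assigned by its summit, which had to lie at most 2000 bp before or 500 bp past the gene start, with no start of another protein-coding gene in reach being nearer. The sequences below are those around the summits of the 3 genes with an optimal peak and of nlp-47, the strongest gene without one. Each is 151 bases of ce11, read 5′ to 3′ on the strand of the gene, with the summit in the middle and E-boxes in capitals. They come from chrIV:8680977-8681127 (minus strand) for nlp-60, chrIII:2061921-2062071 (minus strand) for ins-16, chrII:10154405-10154555 (plus strand) for nlp-63 and chrIV:5289170-5289320 (plus strand) for nlp-47.
nlp-60: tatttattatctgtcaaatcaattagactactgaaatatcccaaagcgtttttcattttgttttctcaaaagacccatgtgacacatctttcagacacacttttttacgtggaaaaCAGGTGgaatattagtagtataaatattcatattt
ins-16: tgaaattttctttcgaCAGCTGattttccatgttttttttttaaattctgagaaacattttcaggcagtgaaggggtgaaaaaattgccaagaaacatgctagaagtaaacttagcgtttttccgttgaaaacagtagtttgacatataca
nlp-63: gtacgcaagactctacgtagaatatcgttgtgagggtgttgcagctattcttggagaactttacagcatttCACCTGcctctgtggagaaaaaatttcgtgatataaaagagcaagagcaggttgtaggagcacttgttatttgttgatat
nlp-47: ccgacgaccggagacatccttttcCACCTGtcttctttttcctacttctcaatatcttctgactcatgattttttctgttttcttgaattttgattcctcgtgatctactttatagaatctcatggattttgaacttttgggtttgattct

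Peaks were assigned to 3 neuropeptide genes, nlp-60, ins-16 and nlp-63, and most of the others had at best a weak region. The deposited −log10 q-value of the strongest region was 2.157 at nlp-60, 1.934 at ins-16 and 1.584 at nlp-63. It was 1.032 at nlp-47 and 0.6206 at nlp-76, the next genes by signal value. A region of any strength was assigned to 68 of the 140 genes (48.6%), and to 47.7% of all protein-coding genes. The 3 genes with an optimal peak were 4.41% of those 68, and 3.27% of the 9528 protein-coding genes with a region had one. The strongest region was among the 1000 strongest of the pooled list at 4 genes (5.88%) and at 5.59% of protein-coding genes. These shares stand close to the background and do not set the peptide genes apart. Signal values of the strongest regions ran from 12.1 to 71.7 with a median of 15.7, and the median over all protein-coding genes with a region was 16.9. The median pooled rank was 15691.5 for the peptide genes and 12463 for protein-coding genes. This order was not kept in each replicate list, where the medians were 12146 for the peptide genes against 12325 in replicate 1 and 13935 against 12602 in replicate 2.

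**Figure D1:**
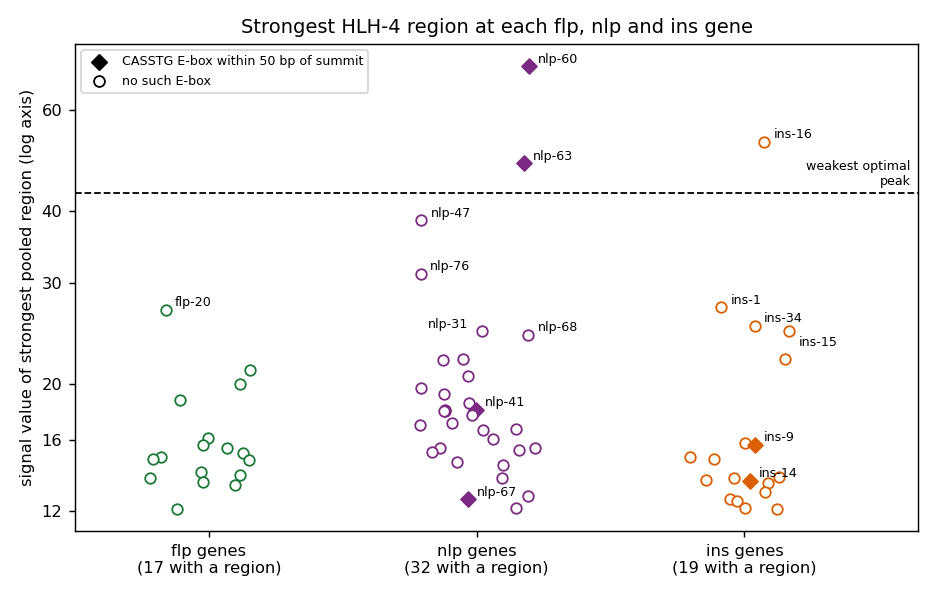
Signal value of the strongest pooled region (vertical log axis) at each of the 17 flp, 32 nlp and 19 ins genes with a region, spread sideways within a family for legibility. Filled diamonds have an E-box (CASSTG, meaning the 3 hexamers above) within 50 bp of the summit and open circles have none; only nlp-60, ins-16 and nlp-63 lie above the dashed line at 43.1, the weakest optimal peak.

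The strongest neuropeptide site was at nlp-60 (chromosome IV, 8678696 to 8679325, minus strand), which encodes a neuropeptide-like precursor. The peak, at IV 8680943 to 8681090, ranked 216 in the pooled list with a signal value of 71.7. Its region ranked 225 in replicate 1, with a signal value of 31.4, and 220 in replicate 2, with 41.9, so both replicates placed it in their top set. The summit was intergenic, 1727 bp upstream of the start, and the nearest start of another protein-coding gene, F08B4.8, was 3449 bp away. Its E-box, a CACCTG hexamer, was centred 43.5 bp from the pooled summit, 25.5 bp from the replicate 1 summit and 11.5 bp from the replicate 2 summit.

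The nlp-60 locus held a second optimal peak just outside the window used for assignment. This peak, at IV 8681899 to 8682228, had its summit 2739 bp upstream of the nlp-60 start, in the intergenic stretch between nlp-60 and the 3′ end of pole-2, a DNA polymerase epsilon subunit gene. With a signal value of 73.7 it ranked 197, ahead of the assigned peak, and its region ranked 741 in replicate 1 and 149 in replicate 2. A CACCTG hexamer was centred 15.5 bp from its summit. Inside the window nlp-60 had 5 regions, and the 4 below the optimal set ranked from 762 to 22364. The first of these, 788 bp upstream, differed between replicates, with rank 16287 in replicate 1 and rank 461 in replicate 2. The window of nlp-60 held 5 E-boxes, the highest number at any of the 140 genes, and 2 of them were at a pooled summit. The 151 bases around the second peak (chrIV:8681989-8682139, strand of nlp-60) are shown for comparison with the assigned peak above, since both carry the same hexamer.
nlp-60 second peak: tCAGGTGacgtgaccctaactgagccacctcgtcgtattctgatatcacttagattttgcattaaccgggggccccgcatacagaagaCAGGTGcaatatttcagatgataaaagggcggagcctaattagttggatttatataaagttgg

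At nlp-63 (II, 10155406 to 10156222, plus strand), another neuropeptide-like precursor gene, the peak lay on the E-box. The region at II 10154315 to 10154644 had a signal value of 48.5 and ranked 442. Replicate 1 ranked it 386, with a signal value of 24.7, and replicate 2 ranked it 3487, with 15.9, so it was in the top set of replicate 1 alone. Summits nonetheless coincided: the CACCTG E-box was centred 1.5 bp from the pooled summit, 1.5 bp from that of replicate 1 and 4.5 bp from that of replicate 2, 927.5 bp upstream of the start. It was the only region assigned to the gene, whose window held 4 E-boxes, 1 of them at a summit.

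A stronger optimal peak lay further upstream of nlp-63, at II 10150562 to 10150891. Its summit was 4679 bp upstream of the nlp-63 start, in an intron of the neighbouring gene pax-3, a paired-box transcription factor gene. It had a signal value of 79.3 and pooled rank 176, and it ranked 242 in replicate 1 and 180 in replicate 2. A CACCTG hexamer was centred 32.5 bp from the summit, in the window chrII:10150652-10150802, read on the strand of nlp-63.
nlp-63 second peak: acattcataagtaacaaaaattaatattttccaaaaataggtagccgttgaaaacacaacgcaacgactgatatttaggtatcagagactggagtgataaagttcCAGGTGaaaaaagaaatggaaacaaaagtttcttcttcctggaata

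The peak at the insulin-like gene ins-16 (III, 2060623 to 2060957, minus strand) was the 1 of the 3 with no E-box inside 50 bp. It spanned III 2061831 to 2062160, with its summit 1039 bp upstream in intergenic sequence, a signal value of 52.9 and pooled rank 387. The region ranked 821 in replicate 1, with a signal value of 18.6, and 522 in replicate 2, with 27.5. A CAGCTG E-box, the only one in the window of the gene, lay just beyond the limit, 56.5 bp from the pooled summit, 56.5 bp from that of replicate 1 and 55.5 bp from that of replicate 2.

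Below the optimal set came nlp-47, the precursor gene of a peptide related to gonadotropin-releasing and adipokinetic hormones. Its strongest region, at IV 5289080 to 5289409 and 1602 bp upstream, had a signal value of 38.6, between 48.5 at nlp-63 just inside the set and 31.1 at nlp-76 next below, and the weakest optimal peak of all had 43.1. It ranked 662 in the pooled list, 7076 in replicate 1 and 666 in replicate 2, so its place rested mainly on replicate 2. A CACCTG E-box was centred 48.5 bp from the summit and ran 1 base past the 50-bp limit, so it was not counted. Of the 6 strongest members, 5 had an E-box when the limit was 100 bp (nlp-60, ins-16, nlp-63, nlp-47 and ins-1), a grouping made after the sites had been seen. The same limit gave 60.9% of the optimal peaks and 24.5% of the pooled regions below them down to rank 2000.

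**Figure D2:**
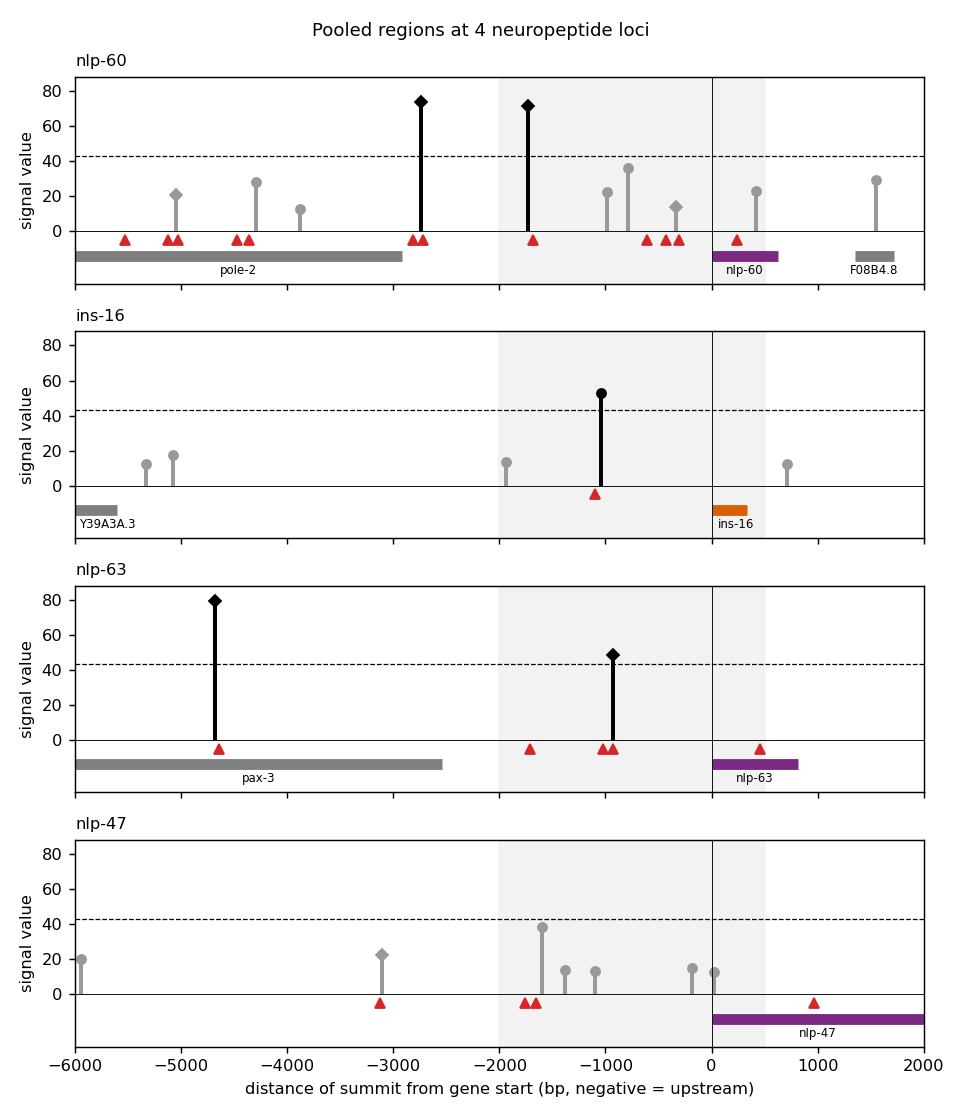
Pooled regions around the gene starts of nlp-60, ins-16, nlp-63 and nlp-47, plotted by distance of the summit from the start (bp, upstream to the left) and signal value. Black stems are optimal peaks and grey stems weaker regions, diamonds have an E-box within 50 bp, red triangles mark every E-box, bars mark protein-coding genes, grey shading is the assignment window and the dashed line is the weakest optimal peak (43.1); nlp-60 and nlp-63 each have 1 peak inside the shading and 1 stronger peak left of it.

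The next 7 genes by signal value had regions outside the optimal set, and the gap between their replicate ranks varied. The region of nlp-76, 497 bp downstream of the start in an intron of the gene, had a signal value of 31.1, with rank 2195 in replicate 1 and 13479 in replicate 2. The region of ins-1, whose peptide is an insulin-like ligand studied in salt learning, had 27.2 and ranked 9212 and 5025 in replicates 1 and 2. The flp-20 region, at a FMRFamide-like gene known from touch receptor neurons, had 26.9 and ranked 2199 and 14585. None of these 3 was in the top set of either replicate, and the gap was 6.14-fold at nlp-76 but 1.83-fold at ins-1. The ins-34 region had 25.3 and ranked 4564 in replicate 1 and 7175 in replicate 2, a 1.57-fold gap like that of the optimal peak at ins-16. The regions of ins-15 (24.7) and nlp-68 (24.4) overlapped a region of replicate 2 only, at ranks 1687 and 2542. The ins-15 summit was also in reach of the F41G3.5 start. The nlp-31 region (24.7), in an intron of an antimicrobial peptide gene of the epidermis, ranked 13358 and 5472, and its summit was also in reach of the neighbouring genes nlp-34 and nlp-30.

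In the pooled list the 3 families differed in where their strongest regions fell. Among nlp genes with a region, 22 of 32 (68.8%) had it at pooled rank 15000 or above, where 58.4% of protein-coding genes had theirs. Ranks this high held 5 of 17 flp genes (29.4%) and 5 of 19 ins genes (26.3%). Median pooled ranks were 10355.5 for nlp, 18129 for flp and 22315 for ins genes. No test was made of these differences, and the lists share each gene's neighbourhood and the same 2 libraries. Family medians were not taken in each replicate list, so whether the gaps, or the order of the families, hold there is not shown. The strongest flp genes after flp-20 were flp-17, a gene of the carbon dioxide-sensing BAG neurons, at rank 5303 and signal value 21.2, and flp-23, at rank 6591 and 20.1. No flp gene had an optimal peak or an E-box at its strongest summit.

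**Figure D3:**
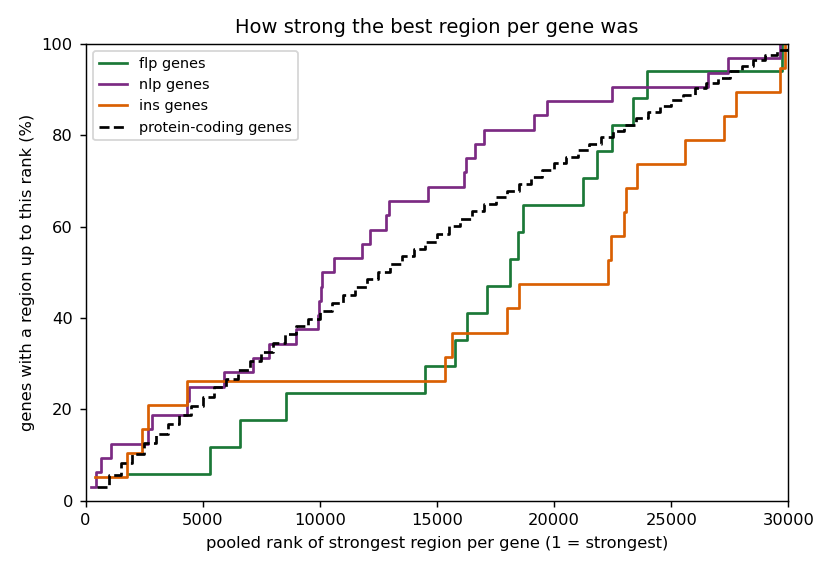
Share of genes with a region (vertical axis, percent) whose strongest region lies at or above a given pooled rank (horizontal axis, 1 is strongest), for flp, nlp and ins genes and, dashed, all 9528 protein-coding genes with a region. At rank 15000 the curves stand at 68.8% for nlp, 29.4% for flp, 26.3% for ins and 58.4% for protein-coding genes. Beyond rank 22000 the flp curve rises above the dashed one, to 94.1% at rank 23948. The dashed curve stands at 85.2% at rank 24000 and reaches 94.1% at rank 27500. Near rank 5000 the ins curve is above the dashed one.

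E-boxes were at the summit of the strongest region in 6 of the 68 genes (8.82%), and in 6.82% of the 9528 protein-coding genes. The order turned in the list of each replicate alone, with 4.11% of peptide genes against 6.72% of protein-coding genes in replicate 1 and 5.71% against 6.54% in replicate 2. Of all 30000 pooled regions, 6.28% held one, with 49.7% among the optimal peaks and 4.62% among those ranked 15001 to 30000. Besides nlp-60 and nlp-63 the 6 genes were nlp-41, ins-9, ins-14 and nlp-67, and their regions ranked 9937, 15630, 23057 and 27414. The nlp-41 region, 142 bp downstream of the start in an intron, ranked 5292 in replicate 1 and overlapped none in replicate 2. The ins-9 summit, 1187 bp upstream, fell in a coding exon of ubc-22, a ubiquitin-conjugating enzyme gene, and overlapped no region of either replicate. That summit was also in reach of the ubc-21 start. The ins-14 region, 191 bp upstream, was also in reach of the F41G3.5 start, 699 bp away, and of the ins-15 start. It ranked 20538 in replicate 1 only, where the summit was 238.5 bp from the hexamer. The nlp-67 region, 644 bp upstream, ranked 8257 in replicate 2 only. These 4 windows are shown as E-boxes at the summits of weaker regions. The ins-14 and nlp-67 windows hold CACCTG, as the assigned peaks of nlp-60 and nlp-63 do, and the nlp-41 and ins-9 windows hold CAGCTG. Their signal values reached down to 12.6, where the median of all pooled regions was 15.9. They are chrII:14550980-14551130 (plus strand), chrX:8867775-8867925 (minus), chrII:6745930-6746080 (minus) and chrX:16183650-16183800 (plus).
nlp-41: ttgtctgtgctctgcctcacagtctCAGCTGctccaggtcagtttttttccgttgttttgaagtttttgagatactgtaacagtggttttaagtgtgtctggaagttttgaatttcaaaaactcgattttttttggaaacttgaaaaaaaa
ins-9: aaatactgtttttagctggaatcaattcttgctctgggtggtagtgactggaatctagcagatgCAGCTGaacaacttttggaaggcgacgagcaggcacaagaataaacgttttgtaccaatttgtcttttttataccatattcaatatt
ins-14: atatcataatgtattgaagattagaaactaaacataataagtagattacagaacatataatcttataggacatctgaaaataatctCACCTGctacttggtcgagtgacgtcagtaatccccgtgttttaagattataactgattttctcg
nlp-67: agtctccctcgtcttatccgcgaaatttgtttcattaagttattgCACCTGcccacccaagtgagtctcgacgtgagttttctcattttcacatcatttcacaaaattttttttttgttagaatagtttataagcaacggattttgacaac

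Most E-boxes near these genes were more than 50 bp from a pooled summit, although some of these, such as those of ins-16, nlp-47 and ins-1, lay inside a region. The windows of 91 of the 140 genes (65%) held at least 1 E-box, and so did those of 67.6% of protein-coding genes. E-boxes were counted per gene window, so an E-box in the windows of 2 genes counted for each of them. Of the 147 counted in the neuropeptide windows, 8 (5.44%) were within 50 bp of a pooled summit and 2 (1.36%) at an optimal peak. Over all protein-coding genes, counted the same way, 4.73% and 0.919% were. The 8 hold the E-box of the ins-14 region both for ins-14 and for ins-15. The 2 at optimal peaks were those of nlp-60 and nlp-63. No E-box of the 33 in flp windows was at a summit.

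The strongest pooled region was matched in 1 replicate only at 43 of the 68 genes, and at 5366 of the 9528 protein-coding genes. It overlapped a region in both replicates at 18 of the 68 genes (26.5%), and at 35.1% of protein-coding genes. It overlapped 1 in replicate 1 only at 20 genes (2441 of the 9528 protein-coding genes) and 1 in replicate 2 only at 23 (2925 of them). It overlapped none in either at 7, where 821 of the 9528 protein-coding genes had none. Taken from each replicate alone, 2 genes had a region in the top set of replicate 1 (nlp-60 and nlp-63; 2.74% of those with a region, against 3.24% of protein-coding genes) and 2 in that of replicate 2 (nlp-60 and ins-16; 2.86% against 3.11%). Only nlp-60 was in both. The optimal set was made from both replicates, so these ranks are no independent check of it. The strongest pooled summits lay upstream of the start at 55 of the 68 genes, and 50 were intergenic, 12 in introns, 5 in coding exons and 1 in a 3′ UTR.

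**Figure D4:**
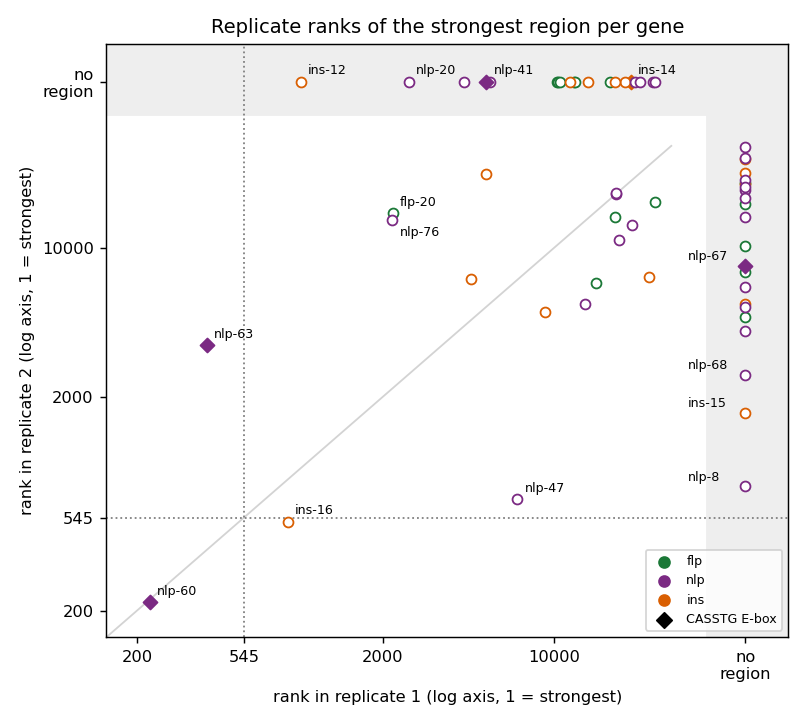
Rank in replicate 1 (horizontal) and in replicate 2 (vertical) of the region overlapping the strongest pooled region of each gene, both on log axes with 1 the strongest; grey bands hold genes with no overlapping region in that replicate, and dotted lines mark the size of the optimal set. Colours give the family and diamonds an E-box within 50 bp; nlp-60 (225 and 220) is the only gene inside both dotted lines, and the 7 genes with no region in either replicate are not drawn.

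Neuropeptide genes reported in the ADL neurons had regions but no optimal peak. The list has 5 symbols, of which 4 matched the annotation and 1 was not analysed here. The 4 were nlp-7, flp-4, nlp-8 and flp-21, the last a ligand gene of the receptor NPR-1. Their median pooled rank was 9320.5 and their median signal value 18.4, against 12463 and 16.9 for protein-coding genes with a region. With 4 genes and a background of 3.27%, the absence of an optimal peak is no result about the list. None had an optimal peak or an E-box at its strongest summit. The region of nlp-7 ranked 7849 with a signal value of 19.2, and it overlapped a region at rank 6527 in replicate 2 only, while the strongest nlp-7 region of replicate 1, at rank 2587, lay elsewhere, 17 bp past the start. The region of flp-4 ranked 8544 with 18.8, and 16919 in replicate 1 only. The region of nlp-8 lay at the edge of the window, 2000 bp upstream, and ranked 10097 with 17.9, with rank 764 in replicate 2 and no overlapping region in replicate 1. The region of flp-21 ranked 23948 with 13.4, and 14869 and 6821 in replicates 1 and 2. The list was written from general knowledge of these genes with earlier results of these data known.

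No region was assigned to 72 of the 140 genes. The 14 flp genes were flp-2, flp-5, flp-7, flp-13, flp-14, flp-16, flp-18, flp-19, flp-22, flp-25, flp-26, flp-27, flp-28 and flp-33. The 39 nlp genes were nlp-1, nlp-4, nlp-5, nlp-9, nlp-12, nlp-15, nlp-16, nlp-17, nlp-18, nlp-22, nlp-23, nlp-25, nlp-26, nlp-28, nlp-33, nlp-34, nlp-36, nlp-39, nlp-40, nlp-43, nlp-48, nlp-50, nlp-51, nlp-55, nlp-56, nlp-57, nlp-58, nlp-59, nlp-62, nlp-64, nlp-66, nlp-69, nlp-70, nlp-71, nlp-78, nlp-79, nlp-81, nlp-82 and nlp-101. The 19 ins genes were ins-3, ins-4, ins-6, ins-7, ins-10, ins-13, ins-17, ins-19, ins-20, ins-24, ins-26, ins-27, ins-28, ins-29, ins-31, ins-33, ins-35, ins-36 and ins-37. Among them are well-studied genes such as flp-18, a ligand gene of NPR-1, nlp-12, a cholecystokinin-like gene, and ins-6 and ins-7, insulin-like genes of the DAF-2 pathway. A missing region means only that none of the 30000 listed summits was assigned to the gene. At 7 of the 72 (ins-7, nlp-4, nlp-12, nlp-33, nlp-34, nlp-39 and nlp-71) a summit lay in the window but nearer the start of another gene, with pooled ranks between 2667 and 22365. An optimal peak lay within 5000 bp of the start, on either side and whatever gene it was assigned to, at 12 of the 140 genes (8.57%) and at 5.67% of protein-coding genes. Those at nlp-4, ins-13, ins-37 and ins-17, from 844 to 1912 bp past the start, were nearest to F59C6.18, C17C3.24, F08G2.5 and the ribosomal protein gene rps-1.

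Other genes of peptide signalling had optimal peaks as well. Among the genes with a region the share was 8% for receptors, 11.1% for processing and release genes and 16.7% for other peptide genes, the last 2 shares resting on 1 gene each. Among 105 receptor genes for neuropeptides and insulin-like peptides, 75 had a region and 6 of these an optimal peak. The strongest was at tkr-2, which encodes a tachykinin receptor-like protein: signal value 145.8, pooled rank 25, rank 52 in replicate 1 and 20 in replicate 2, with an E-box at the summit 1620 bp upstream. Next was npr-43, with 69.1 at pooled rank 238 and ranks 270 and 319 in replicates 1 and 2. The nematocin receptor-like gene ntr-2 had 55.8 at rank 353, with 267 and 651, and npr-21 had 52.7 at rank 391, with 326 and 525. All 4 had an E-box, while the optimal peaks at dmsr-14 (45.0, rank 505) and nmur-2 (43.1, the weakest of the set), a neuromedin U receptor-like gene, had none.

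Of 15 genes for peptide processing and dense-core vesicle release, 9 had a region and 1 an optimal peak: pgal-1, for a peptidylglycine amidating lyase, with 45.1 at rank 504, 912 in replicate 1 and 425 in replicate 2, and with an E-box. The carboxypeptidase E gene egl-21 ranked 439 in replicate 1 but overlapped no region of replicate 2, and 1534 in the pooled list (28.2). Of 8 other peptide genes, 6 had a region and 1 an optimal peak, the neuromedin U-like precursor gene capa-1, with 47.2 at rank 464, 381 in replicate 1 and 1154 in replicate 2, and an E-box at the summit 728 bp upstream. The background for all 3 lists is the 3.27% of protein-coding genes with a region that had an optimal peak, and no test was made. The 3 lists together had 8 genes with an optimal peak, but 15 when summits up to 5000 bp before or 1000 bp past the start counted. The background was then 3.34%. With each replicate list used by itself, 8 of their genes were in the top set of replicate 1 and 4 in that of replicate 2. The 8 of replicate 1 are another set, with egl-21 and npr-39 and without pgal-1 and nmur-2. The backgrounds were 3.24% and 3.11%. How many of the listed genes had a region under these settings is not given, so the counts have no share to set beside the backgrounds. Among the strongest 272 optimal peaks there were 2 (tkr-2 and npr-43), and no background was taken for that set.

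**Figure D5:**
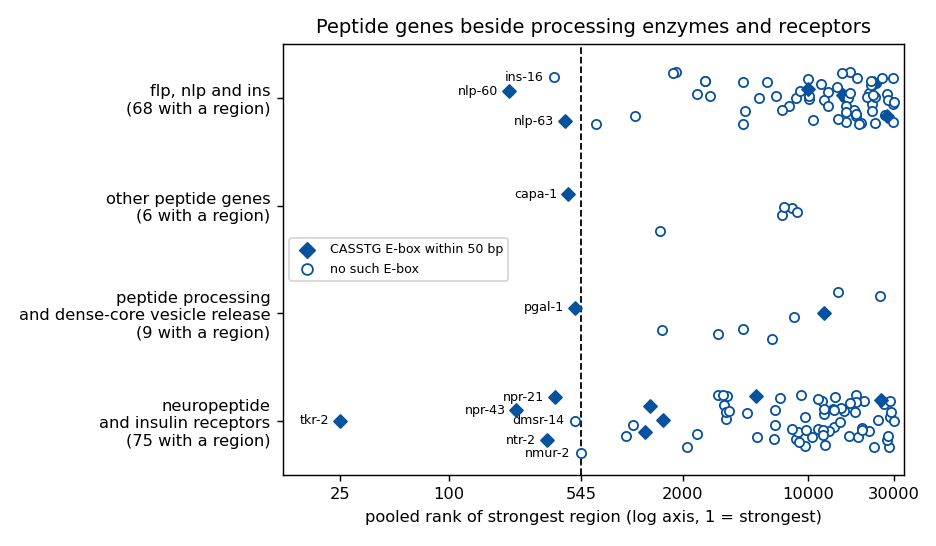
Pooled rank of the strongest region (log axis, 1 is strongest) of each gene with a region among the flp, nlp and ins genes (68), other peptide genes (6), processing and release genes (9) and receptors (75), spread vertically within a row for legibility. Filled diamonds have an E-box within 50 bp of the summit; the genes left of the dashed line, which marks the end of the optimal set, are named, and tkr-2 at rank 25 lies furthest left.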

How the data were processed

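ChIP-seq regions were analysed in 2 libraries, biological replicates 1 and 2 per the labels. According to the text deposited with the lists, the authors derived a ranked region list from each library and from both pooled, using a control, and derived the optimal set from these lists by IDR. No source used here names the aligner or peak caller. The deposited signal value has an unstated normalization and served only to rank and describe regions inside a list. The −log10 q-value that the authors deposited selected nothing. The control library was not analysed here.

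Lists on ce11 were combined with the RefSeq WBcel235 sequence and the Ensembl release 115 annotation. Every optimal peak was found in the pooled list. Replicate regions were matched by an overlap of at least 1 bp, taking the strongest. Positions are 1-based. Python 3.11.15 and matplotlib 3.10.9 were used, and assignment, matching and the E-box search were checked on simulated data.

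No test was run, since there is 1 group and genes are not replicates. Counts stand beside those of all protein-coding genes. The members, the lists and the naming rule were chosen with earlier results of these data known. Named genes are those with an optimal peak, the next 8 by signal value, those with an E-box at the strongest summit (at most 15), those in the top set of a replicate, the 3 strongest per family, the ADL list, the 3 with the largest fold gap between replicate ranks and, by name only, those without a region. Other genes and the second peaks were chosen after their values were seen. Alternatives covered the window, gene start, assignment, E-box limit, a stricter peak set, each replicate alone and the overlap. Those for the processing, receptor and other peptide lists were added after seeing the data.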

Additional observations from a re-analysis of the deposited data

How the results depend on the processing

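A narrower assignment window changed which genes had a peak, and a wider one did not. With 1000 bp upstream to 200 bp downstream, 40 genes had a region in place of 68, and 1 (nlp-63) had an optimal peak in place of 3. Of the strongest summits 10% had an E-box in place of 8.82%, and the median pooled rank was 18338 in place of 15691.5. Of protein-coding genes with a region in this window, 3.85% had an optimal peak and 7.59% an E-box, and their median rank was 13019.5. With 5000 bp upstream to 1000 bp downstream, 94 of the peptide genes had a region and the same 3 had an optimal peak. Their median pooled rank was 13954.5. Processing, release, receptor and other peptide genes with an optimal peak then numbered 15 in place of 8. Of protein-coding genes with a region in this window, 3.34% had an optimal peak, and their median rank was 11119. How many of the listed genes had a region in this window is not given, so 15 has no share to set beside this background. In the upper 272 optimal peaks 1 of the peptide genes (nlp-60) and 2 of those other genes remained. No share over protein-coding genes was taken for this stricter set, so these counts have no background. An E-box limit of 25 bp gave 4.41% (ins-9, ins-14 and nlp-63, without nlp-60) and one of 100 bp gave 13.2%, where all protein-coding genes with a region had 3.76% and 11.8%. With the list of 1 replicate alone, 70 to 73 genes had a region, 2 and 2 had one of the top set, 4.11% to 5.71% had an E-box, the median rank was 12146 to 13935, and 4 to 8 of the other genes were called. Over protein-coding genes the E-box share was then 6.72% with replicate 1 and 6.54% with replicate 2, above that of the peptide genes. The number of the other genes with a region in each replicate list is not given, so the 4 to 8 have no share. Counting a summit for every gene in reach, or using any transcript start, left 3 genes with an optimal peak, of 75 with a region each time. Of protein-coding genes with a region, 3.98% and 3.39% then had an optimal peak. Under a stricter overlap with the replicate regions, 30 replicate ranks of named genes stayed the same. The ins-14 region lost its only match, the one at rank 20538 in replicate 1. Depth is unknown, so how far it limits the weak regions cannot be given.

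No paired analysis was possible because the 2 replicates form 1 group and nothing was tested.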
